A study of Mus musculus with 16 samples.

Results

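The genes described here are 10 genes of the cardiomyocyte Z-disc and of its response to mechanical load: Ankrd1, Csrp3, Fhl1, Fhl2, Xirp1, Xirp2, Nrap, Flnc, Des and Rcan1. They were matched by symbol through the Ensembl identifiers of the count table. All 10 were found among the 55573 genes of the table, and all 10 passed the filter on low counts that left 19955 genes for testing. Ventricular RNA came from 16 male mice in 4 groups of 4, collected at 16 weeks of age, 8 weeks after transverse aortic constriction (TAC), which narrows the aorta and overloads the left ventricle with pressure, or after sham surgery. All mice carried the aMHC-MerCreMer transgene and Trbp-Flox/Flox alleles. Tamoxifen was given to the Trbp-cKO mice on 5 days from 4 weeks of age (30 mg/kg), whereas control mice had corn oil instead, so tamoxifen with active Cre and the deletion cannot be told apart. The αMHC promoter drives Cre in cardiomyocytes, so Trbp stays intact in the other cells of the ventricle. Floxed mice that received tamoxifen without Cre were not analysed here. The comparisons ask how the 10 genes respond to TAC in control hearts, how they differ after loss of Trbp without and with TAC, and whether the response to TAC depends on Trbp.

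The Z-disc is the border of the sarcomere, where actin filaments of neighbouring sarcomeres are anchored and crosslinked. Force passes through it from myofibril to myofibril, along desmin filaments, and outward to the cell membrane at costameres. Several Z-disc proteins also act as sensors of strain: they move to the nucleus or bind signalling enzymes such as calcineurin, and transcripts of the muscle ankyrin repeat proteins and of the LIM and Xin proteins are known to respond to stretch and pressure overload.

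Transcript counts summed to between 45166994 and 68274222 per heart. Tarbp2, the gene that encodes Trbp, was measured at 30.6 to 33.3 CPM, a count relative to library size, in control sham, 21.1 to 31.1 CPM in control TAC, 8.39 to 11.4 CPM in Trbp-cKO sham and 7.14 to 9.74 CPM in Trbp-cKO TAC hearts. It was lower in Trbp-cKO than in control hearts after sham surgery by a log2 fold change of -1.76 (SE 0.14, adjusted p = 2.38e-05) and after TAC by -1.65 (SE 0.14, adjusted p = 1.17e-05). Adjusted p-values here and below are Benjamini-Hochberg values of edgeR's quasi-likelihood test over the 19955 genes, and a call needed both an adjusted p no higher than 0.05 and a log2 change of 0.8 or more in size. Control TAC replicates 1 and 2 stood apart from the rest: mitochondrial transcripts made up 38.2% and 38.8% of their counts, against 18.2% to 26.3% in the other hearts. Their summed CPM of 10 cardiomyocyte markers (Myh6, Tnnt2, Tnni3, Actc1, Ryr2, Pln, Myl2, Mb, Ckm and Actn2) was 30002.5 and 23688, while control TAC replicates 3 and 4 had 59034 and 59533. Trbp-cKO TAC replicate 4 was also low, at 35799.7, and the other 13 hearts lay between 51146.5 and 64111. None of the 10 markers was at 0 in any heart. In ventricular tissue, fewer cardiomyocytes and less RNA per cardiomyocyte cannot be told apart. Genes of the circadian clock also separated the groups, although no collection times were given in the sources used here: 9 output genes, among them Dbp and Per3, summed to 298 to 417 CPM in control sham and 763 to 824 CPM in Trbp-cKO sham hearts, and 6 of the 9 were called higher. After TAC the sums were 507 to 568 CPM in control and 363 to 587 CPM in Trbp-cKO hearts. Fibroblast markers (7 genes) summed to 635 to 716 CPM in control sham, 852 to 1609 CPM in control TAC, 818 to 1044 CPM in Trbp-cKO sham and 1451 to 2688 CPM in Trbp-cKO TAC hearts. Between the genotypes after TAC, 2 of the 7, Postn and Col1a1, were called higher (log2 1.36 and 1.00), while the median of the 7 was -0.01. Immediate early genes (7 genes, among them Fos and Atf3) summed to 994 CPM in control sham replicate 2 and 224 to 258 CPM in the other control sham hearts. Replicate 2 was also highest in control TAC (615 CPM, the others 181 to 264 CPM) and in Trbp-cKO sham hearts (293 CPM, the others 165 to 182 CPM). In Trbp-cKO TAC hearts replicate 4 was highest (374 CPM). The part of these shifts in the results below was not tested. A clock score, the difference between the mean standardized levels of clock genes of opposite phase, ran from -2.61 to -1.16 in control sham and from 1.72 to 2.00 in Trbp-cKO sham hearts, so the score and the genotype cannot be told apart without TAC. With it in the fit, 0 of the 19955 genes were called between the genotypes after sham surgery and 1 in the interaction.

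The 10 transcripts together made up 0.691% to 0.714% of all counts in control sham hearts and 0.700% to 0.784% in Trbp-cKO sham hearts. After TAC their share was 0.860% to 1.47% in control and 1.39% to 2.02% in Trbp-cKO hearts. All counts here include mitochondrial transcripts, and the lowest shares after TAC were those of control TAC replicates 1 and 2, 0.860% and 0.911%. Ankrd1 alone averaged 1689 CPM in control sham and 4705 CPM in control TAC hearts, and 3 of the 10 genes were called in that comparison. Levels were compared between genes as CPM per kilobase of merged exon. In control sham hearts Ankrd1 was highest at 585 ± 33.5 (SD, n = 4), followed by Fhl2 at 505 ± 71.5 and Des at 458 ± 25.0, and neighbours among these 3 overlapped. Csrp3 at 296 ± 4.28 and Nrap at 121 ± 3.05 were each separate from the genes above and below them. Rcan1, Xirp2, Flnc, Xirp1 and Fhl1 followed between 52.0 and 33.5 on average, and each overlapped its neighbour. In Trbp-cKO TAC hearts Ankrd1 at 2218 ± 273 and Des at 986 ± 53.7 stood clear of each other and of Csrp3 at 373 ± 95.7, and all other neighbours overlapped.

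**Figure D1:**
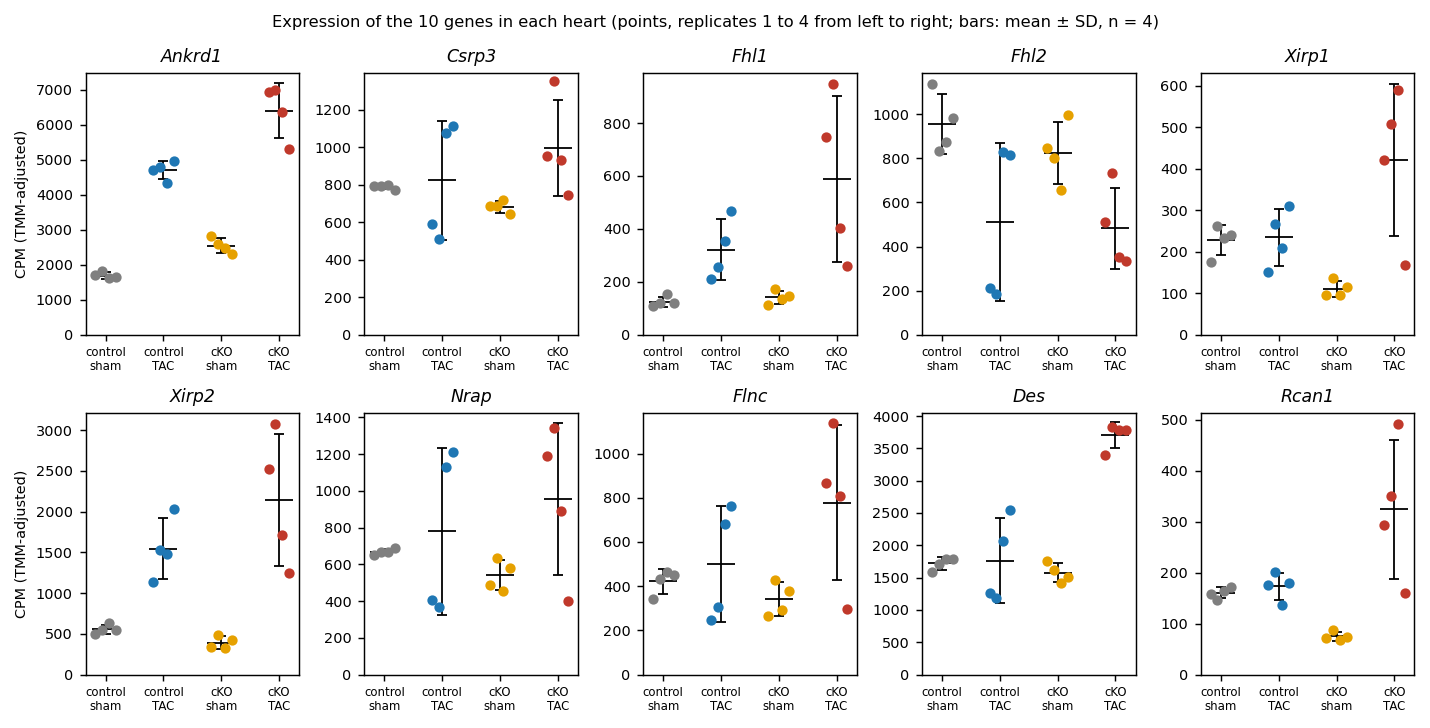
CPM on TMM-adjusted library sizes (vertical axes, from 0) of each of the 10 genes in each of the 16 hearts, by group. Points are hearts, with replicates 1 to 4 from left to right, and bars give the mean ± SD (n = 4). The 4 Trbp-cKO TAC hearts lie between 3403 and 3838 CPM for Des, above every other heart, while control TAC hearts split in pairs for Fhl2, Nrap, Csrp3 and Flnc.

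TAC in control hearts raised 3 of the 10 transcripts, Ankrd1, Xirp2 and Fhl1, each by at least 2.58-fold. Over all genes tested, 3.75% were called in this comparison, and 2.5% were called higher. The median log2 fold change of the 10 genes was 0.17, against 0.02 over all genes. Every control TAC heart lay above every control sham heart for 3 genes and below for 1, while 8.64% and 8.78% of all genes tested had such separate groups. The adjusted p alone was passed by 3 of the 10 and 6.29% of all genes, and an unadjusted p under 0.05 was reached by 4 of the 10 and 26.6% of all genes. None of the 10 cardiomyocyte markers had a log2 fold change above 0 in this comparison (median -0.48), and 0 were called. Of the 7 fibroblast markers 2 were called higher (median 0.62), and of the 3 atrial markers tested 1 (median 0.78). Of the 5 smooth muscle markers 1 was called lower (median 0.15). Of the 9 clock output genes 2 were called higher, and of 5 clock genes of opposite phase 2 were called lower. The part of these genes in the results was not tested.

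Ankrd1 (ENSMUSG00000024803, minus strand of chr19:36111961-36120099) encodes the cardiac ankyrin repeat protein, which binds titin in the I-band and also acts in the nucleus. Gene positions are those of GENCODE M21 on GRCm38. It was measured at 1692, 1823, 1605 and 1635 CPM in control sham replicates 1 to 4 and at 4710.3, 4804, 4336 and 4969 CPM in control TAC. In Trbp-cKO hearts it stood at 2813, 2587.5, 2466 and 2293 CPM after sham surgery and at 6945, 6997, 6368 and 5299 CPM after TAC. The 4 groups did not overlap in any comparison, and control TAC replicates 1 and 2 lay between replicates 3 and 4. TAC raised Ankrd1 2.79-fold in control hearts (log2 1.48, SE 0.14, adjusted p = 7.24e-05) and 2.52-fold in Trbp-cKO hearts (log2 1.33, SE 0.14, adjusted p = 2.80e-05). Ankrd1 was higher in Trbp-cKO than in control hearts after sham surgery (log2 0.59, SE 0.14, adjusted p = 0.0419), past the adjusted p but under the fold threshold, and after TAC the log2 fold change was 0.44 (SE 0.14, adjusted p = 0.0704). The exact permutation test of CPM (70 assignments, two-sided) gave p = 0.0286 in each of these 4 comparisons, the smallest value that 4 against 4 hearts can give. The difference between the 2 responses to TAC was -0.14 on the log2 scale (95% interval -0.56 to 0.28, adjusted p = 0.759). Leaving out any of the 8 sham hearts raised the adjusted p of the sham comparison to between 0.0723 and 0.148. It was 0.0543 without genes of the mitochondrial chromosome. In all, 12 of 28 alternative settings passed the adjusted p for Ankrd1 in this comparison.

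The Ankrd1 promoter is shown because it holds the M-CAT motif, the recognition sequence of TEAD factors in muscle genes, at 2 places. The motif searched was CATTCC on both strands, and the matches, in capitals, begin 210 and 123 bases before the RefSeq start. The 250 bases lie at chr19:36119845-36120094 of GRCm38.p6 and are written 5′ to 3′ on the minus strand.
Ankrd1: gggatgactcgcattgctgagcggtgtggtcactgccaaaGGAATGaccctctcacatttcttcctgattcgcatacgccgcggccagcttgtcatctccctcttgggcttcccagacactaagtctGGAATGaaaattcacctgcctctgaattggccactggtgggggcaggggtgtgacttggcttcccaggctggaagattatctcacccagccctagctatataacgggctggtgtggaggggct
Of 32851 mouse promoters of this length in RefSeq, 12.6% held the motif at least once and 1.02% at least at 2 places. The motif search covered 14 promoters of 9 of the genes, and a match describes letters only. Flnc held M-CAT in 1 of its promoters, and 2 of the 14 promoters held it in all.

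Xirp2 (ENSMUSG00000027022, plus strand of chr2:67446002-67526614) and Xirp1 (ENSMUSG00000079243, minus strand of chr9:120013755-120023598) encode Xin repeat proteins that bind actin at intercalated discs and Z-discs. Xirp2 was at 502, 542, 627 and 547 CPM in control sham and 1136.5, 1526, 1483 and 2037 CPM in control TAC hearts. The Trbp-cKO values were 333, 486, 321 and 427 CPM after sham surgery and 2522, 3071, 1719 and 1251 CPM after TAC. All TAC hearts exceeded all sham hearts in both genotypes. TAC raised Xirp2 2.79-fold in control hearts (log2 1.48, SE 0.26, adjusted p = 0.00572) and 5.46-fold in Trbp-cKO hearts (log2 2.45, SE 0.27, adjusted p = 3.79e-05), the largest fold change among the 10 genes. The 2 responses differed by 0.97 on the log2 scale (95% interval 0.20 to 1.75, adjusted p = 0.205), which did not pass the test.

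Xirp1 was at 176, 262, 232 and 240.3 CPM in control sham and 152, 266, 209 and 311 CPM in control TAC hearts. The Trbp-cKO values were 95.5, 136, 95.8 and 115 CPM after sham surgery and 421, 508, 589.9 and 168 CPM after TAC. The control groups overlapped throughout, all Trbp-cKO sham hearts lay below all control sham hearts, and Trbp-cKO TAC replicate 4 was far below the other 3 of its group. TAC raised Xirp1 3.81-fold in Trbp-cKO hearts (log2 1.93, SE 0.32, adjusted p = 0.00108), while in control hearts the log2 fold change was 0.04 (95% interval -0.62 to 0.70, adjusted p = 0.946). The responses differed by 1.89 (95% interval 0.94 to 2.83, adjusted p = 0.0504). Without Trbp-cKO TAC replicate 4 the difference was 2.15 (adjusted p = 0.00404), and without control TAC replicate 4 it was 2.05 (adjusted p = 0.0321). Without control TAC replicates 1 and 2 it was 1.74 (adjusted p = 0.103). The adjusted p of this difference was passed in 5 of 26 alternative settings.

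Fhl1 (ENSMUSG00000023092, plus strand of chrX:56731787-56793346) encodes a protein of LIM domains that binds titin and takes part in hypertrophic signalling. It was at 107, 119, 152 and 120.4 CPM in control sham and 209, 254, 354 and 469 CPM in control TAC hearts. Trbp-cKO hearts had 111, 173, 136 and 144 CPM after sham surgery and 747, 946, 404 and 259 CPM after TAC. TAC hearts exceeded sham hearts of the same genotype without overlap. The rise was 2.58-fold in control hearts (log2 1.37, SE 0.34, adjusted p = 0.0298) and 4.18-fold in Trbp-cKO hearts (log2 2.06, SE 0.35, adjusted p = 0.00131). Leaving out any control sham heart or control TAC replicate 2 ended the call in control hearts, with adjusted p of 0.0503 to 0.0803 and log2 fold changes of 1.29 to 1.48, and the log2 fold change was 1.72 (adjusted p = 0.0463) without control TAC replicates 1 and 2. With the replicate number as a block in the fit, which is no pairing by design, the log2 fold change was 1.37 (adjusted p = 0.0691). With a score of the clock genes in the fit, the log2 fold changes with TAC in control hearts were 0.48 for Fhl1 (adjusted p = 0.504) and 0.88 for Xirp2 (adjusted p = 0.220).

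Fhl2 (ENSMUSG00000008136, minus strand of chr1:43123074-43196984), a LIM protein that anchors metabolic enzymes at the sarcomere and can restrain calcineurin, was the gene with the lowest levels after TAC relative to sham. It was at 1138, 834, 874 and 984 CPM in control sham hearts and at 213, 184, 828 and 814 CPM in control TAC hearts. Trbp-cKO hearts had 849, 801, 657 and 999 CPM after sham surgery and 511, 733, 351 and 336 CPM after TAC. The low control TAC values were those of replicates 1 and 2, and replicate 3 at 828 lay just under the lowest control sham heart at 834. The log2 fold change with TAC was -0.91 in control hearts (SE 0.42, adjusted p = 0.183) and -0.77 in Trbp-cKO hearts (SE 0.42, adjusted p = 0.301), and neither passed the test. Without control TAC replicates 1 and 2, a choice made after seeing the data, the log2 fold change was -0.22 in control hearts (adjusted p = 0.893) and -0.78 in Trbp-cKO hearts (adjusted p = 0.0275).

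Both Fhl2 promoters of RefSeq are shown because each holds a CArG box, the recognition sequence of serum response factor, in capitals. The matches, searched on both strands, begin 96 and 31 bases before the start. The windows lie on the minus strand at chr1:43196762-43197011 and chr1:43163962-43164211 of GRCm38.p6.
Fhl2 first start: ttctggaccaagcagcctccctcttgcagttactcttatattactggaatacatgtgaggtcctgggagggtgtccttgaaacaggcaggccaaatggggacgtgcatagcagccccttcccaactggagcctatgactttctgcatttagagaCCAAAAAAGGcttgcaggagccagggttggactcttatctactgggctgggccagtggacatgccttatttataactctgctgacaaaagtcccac
Fhl2 second start: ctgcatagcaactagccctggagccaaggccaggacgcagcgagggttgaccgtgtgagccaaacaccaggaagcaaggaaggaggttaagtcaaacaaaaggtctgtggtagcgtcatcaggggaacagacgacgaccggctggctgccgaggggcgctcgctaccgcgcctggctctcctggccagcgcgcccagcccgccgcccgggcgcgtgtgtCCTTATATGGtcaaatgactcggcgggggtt
A CArG box was found in 1.47% of all 32851 promoters of this length. Fhl1 also held one, 102 bases before 1 of its starts. The MEF2 box, held by 2.92% of promoters, was found for Fhl2, 31 bases before its first start, and for Xirp2, 74 bases before its start.

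In Csrp3, Nrap and Flnc, as in Fhl1, Fhl2 and Des, control TAC replicates 1 and 2 were below replicates 3 and 4. Csrp3 (ENSMUSG00000030470, minus strand of chr7:48830398-48848033) encodes muscle LIM protein, a Z-disc protein required for the normal architecture of cardiomyocytes. It was at 792, 796, 799.6 and 774 CPM in control sham, 592, 509, 1077 and 1115 CPM in control TAC, 685, 686, 718 and 642 CPM in Trbp-cKO sham and 954, 1353, 934 and 745 CPM in Trbp-cKO TAC hearts. The control sham hearts lay between the pairs of control TAC hearts, and the coefficient of variation was 1.45% in control sham and 38.5% in control TAC hearts. The log2 fold change with TAC was 0.06 in control (95% interval -0.45 to 0.57, adjusted p = 0.894) and 0.55 in Trbp-cKO hearts (95% interval 0.03 to 1.06, adjusted p = 0.172).

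Nrap (ENSMUSG00000049134, minus strand of chr19:56320035-56390037) encodes a nebulin-related anchoring protein of myofibril assembly and intercalated discs. It was at 649.8, 665, 669.7 and 690.4 CPM in control sham and 408, 368, 1131 and 1213 CPM in control TAC hearts. Trbp-cKO hearts had 489.9, 633, 455 and 579.6 CPM after sham surgery and 1190.4, 1343, 888 and 401 CPM after TAC. Control TAC replicates 1 and 2 and Trbp-cKO TAC replicate 4 were below all control sham hearts, and the remaining 5 TAC hearts were above them. The log2 fold change with TAC was 0.22 in control (SE 0.38, adjusted p = 0.738) and 0.83 in Trbp-cKO hearts (SE 0.38, adjusted p = 0.212). Of the 50-base sequences of its exons, 4.87% also occur in genes on the opposite strand, 3.78% in Habp2, and the counting was not stated to use strand.

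Flnc (ENSMUSG00000068699, plus strand of chr6:29433256-29461883) encodes filamin C, which crosslinks actin at Z-discs and costameres. It was at 341, 435, 464 and 448 CPM in control sham and 246, 304, 682 and 765 CPM in control TAC hearts. Trbp-cKO hearts had 266, 428, 293 and 379 CPM after sham surgery and 868, 1138, 810.0 and 295 CPM after TAC. The pattern followed that of Nrap, with the same 3 TAC hearts lowest. The log2 fold change with TAC was 0.24 in control (SE 0.38, adjusted p = 0.712) and 1.19 in Trbp-cKO hearts (SE 0.39, adjusted p = 0.0655). Without Trbp-cKO TAC replicate 4 the latter was 1.46 (adjusted p = 0.0127), and without control TAC replicates 1 and 2 it was 1.18 (adjusted p = 0.0164).

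**Figure D2:**
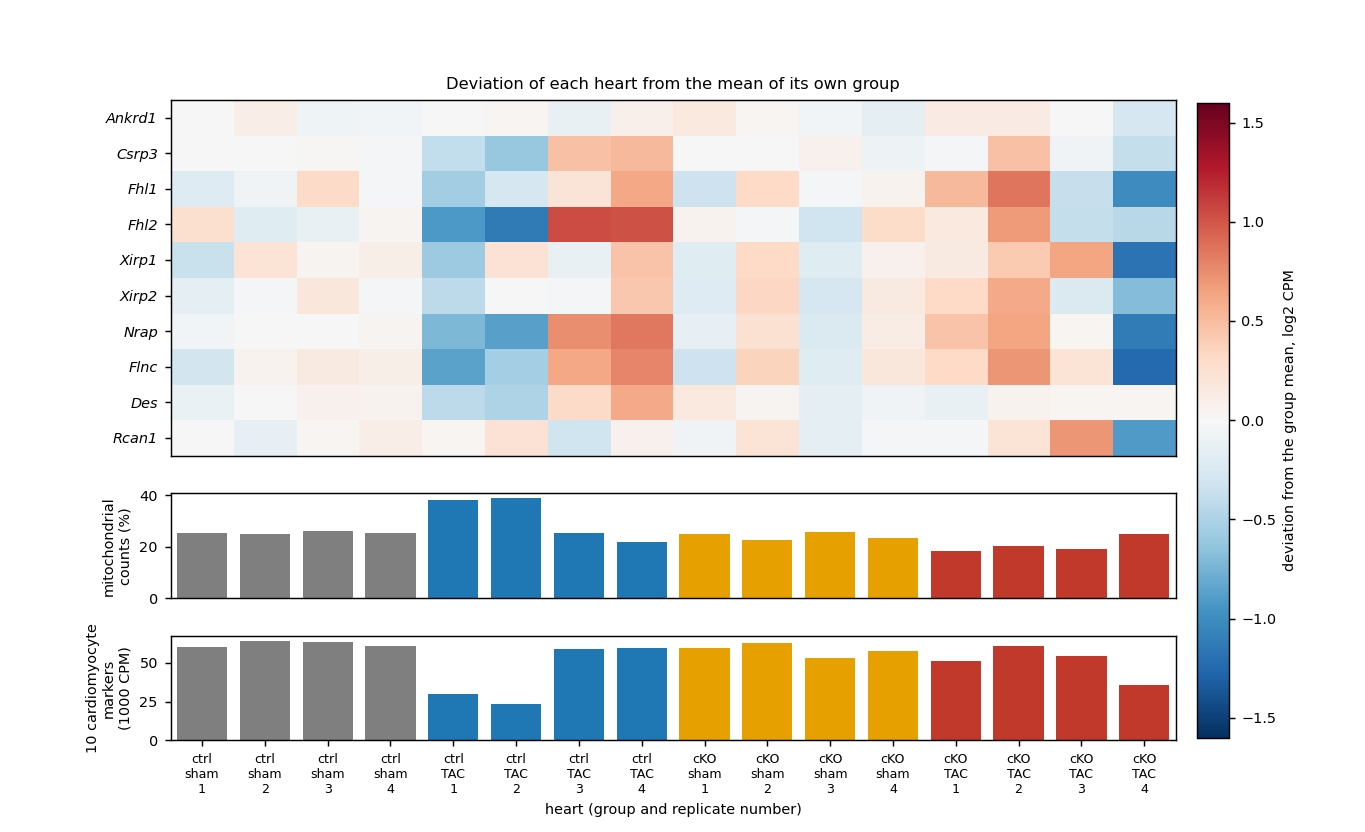
Deviation of each heart from the mean of its own group in log2 CPM for each of the 10 genes (colour, upper panel), with the percentage of counts from mitochondrial transcripts and the summed CPM of 10 cardiomyocyte markers (bars, from 0). Control TAC replicates 1 and 2 and Trbp-cKO TAC replicate 4 have the lowest marker sums, 30002.5, 23688 and 35799.7 CPM, and most genes lie below the group mean there.

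In control TAC replicate 1, 8 of the 10 genes were below the mean of the group, and in replicate 4 all 10 were above it. In Trbp-cKO TAC replicate 4, 9 of the 10 were below, with a median deviation of -0.80 on the log2 scale. Des was the exception, and Ankrd1 deviated least among the other 9. Control TAC replicates 1 and 2 and Trbp-cKO TAC replicate 4 also had the lowest cardiomyocyte marker sums, and the part of that difference in the results was not tested. Over the 16 hearts, Pearson's r of log2 CPM between 2 of the 10 genes had a median of 0.65 over the 45 pairs, 39 of them above 0, from -0.61 for Ankrd1 with Fhl2 to 0.95 for Nrap with Flnc. After subtraction of the group means the median was 0.58, and 43 of the 45 pairs were above 0, some with a changed sign, such as Ankrd1 with Fhl2 at 0.11. Each heart is 1 library, and both genes of a pair were measured in the same library and at the same depth. No pairs of other genes are set beside these correlations, which are descriptions without a test.

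Des (ENSMUSG00000026208, plus strand of chr1:75360329-75368579) encodes desmin, the intermediate filament that links Z-discs to each other, to the membrane and to mitochondria. It was at 1592, 1705, 1794 and 1786 CPM in control sham and 1255, 1187, 2059.8 and 2548 CPM in control TAC hearts. Trbp-cKO hearts had 1755, 1619, 1413 and 1510.4 CPM after sham surgery and 3403, 3838, 3786 and 3786 CPM after TAC. All Trbp-cKO TAC hearts exceeded all other hearts, replicate 4 included, while the control TAC hearts lay on both sides of the control sham hearts. TAC raised Des 2.35-fold in Trbp-cKO hearts (log2 1.23, SE 0.21, adjusted p = 0.00145), and in control hearts the log2 fold change was 0.04 (95% interval -0.42 to 0.49, adjusted p = 0.931). The responses differed by 1.20 (95% interval 0.56 to 1.84, adjusted p = 0.0608). This difference was 1.43 without control TAC replicate 4 (adjusted p = 0.0132) and 0.81 without control TAC replicates 1 and 2 (adjusted p = 0.0592). It was 1.22 with the replicate block (adjusted p = 0.127) and 1.17 with the clock score (adjusted p = 0.745). The adjusted p was passed in 3 of 26 alternative settings. Of the 50-base sequences of Des exons, 4.61% are shared with the antisense gene Gm15179.

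Rcan1 (ENSMUSG00000022951, minus strand of chr16:92391953-92470867) encodes the regulator of calcineurin, which binds and restrains this phosphatase and whose shorter transcript is itself induced by calcineurin through NFAT. It was at 159, 147, 164 and 172 CPM in control sham and 175, 201, 137 and 179.9 CPM in control TAC hearts. Trbp-cKO hearts had 71.7, 86.5, 67.3 and 73.3 CPM after sham surgery and 294, 350.0, 492 and 160.2 CPM after TAC. The control groups overlapped, all Trbp-cKO sham hearts were below all other hearts, and Trbp-cKO TAC replicate 4 fell within the range of the control hearts. In control hearts the log2 fold change with TAC was 0.11 (95% interval -0.41 to 0.63, adjusted p = 0.792). TAC raised Rcan1 4.34-fold in Trbp-cKO hearts (log2 2.12, SE 0.25, adjusted p = 7.54e-05). It was the gene among the 10 whose response to TAC differed between the genotypes past both thresholds (log2 2.01, 95% interval 1.27 to 2.74, adjusted p = 0.0122), while 0.872% of all genes were called in this comparison and 0.446% were called higher. The 7 immediate early genes had differences above 0, with a median of 0.99, and 1 of the 7, Atf3, was called. Of the 9 clock output genes 4 were called lower in the interaction (median -1.18), and of 5 clock genes of opposite phase 3 were called higher (median 1.78). The part of these genes in the Rcan1 difference was not tested. At an unadjusted p under 0.05 the difference between responses passed for 4 of the 10, Xirp1, Xirp2, Des and Rcan1, and for 15.4% of all genes. The difference for Rcan1 was 2.13 without control TAC replicates 1 and 2 (adjusted p = 0.0227).

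The 2 promoters that RefSeq gives for Rcan1 are shown because they differ in the NFAT core GGAAA, searched on both strands and set in capitals. The upstream window, chr16:92466170-92466419, holds no match, and the downstream window, chr16:92400079-92400328, holds 3, which begin 227, 193 and 163 bases before the start. Both are given 5′ to 3′ on the minus strand of GRCm38.p6.
Rcan1 upstream start: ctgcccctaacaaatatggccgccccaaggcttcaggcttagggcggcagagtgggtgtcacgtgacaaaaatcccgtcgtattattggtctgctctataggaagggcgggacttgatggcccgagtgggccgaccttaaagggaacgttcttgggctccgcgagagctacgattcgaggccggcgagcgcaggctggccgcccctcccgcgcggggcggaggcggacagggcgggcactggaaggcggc
Rcan1 downstream start: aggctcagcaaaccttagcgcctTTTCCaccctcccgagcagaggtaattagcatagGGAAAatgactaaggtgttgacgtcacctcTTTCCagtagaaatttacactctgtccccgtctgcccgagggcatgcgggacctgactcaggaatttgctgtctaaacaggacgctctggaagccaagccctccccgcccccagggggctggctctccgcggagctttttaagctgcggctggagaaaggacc
At least 1 match was held by 55.6% of all promoters of this length and at least 3 by 6.39%. Of the 14 promoters searched for these genes, 5 held at least 1 match. Des also held 3, beginning 244, 215 and 62 bases before its start. The counts are per gene and do not tell which Rcan1 start was used.

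Without TAC, Rcan1 was the gene of the 10 called between the genotypes, 2.15-fold lower in Trbp-cKO hearts (log2 -1.10, SE 0.24, adjusted p = 0.0322), where 0.967% of all genes were called and 0.456% were called lower. The median of the 10 log2 fold changes was -0.26, against 0.01 over all genes. All Trbp-cKO sham hearts were below all control sham hearts for 5 of the 10, Csrp3, Xirp1, Xirp2, Nrap and Rcan1, as for 6.96% of all genes, and above for Ankrd1, as for 7.74%. For Xirp1 the log2 fold change was -1.04 (SE 0.31, adjusted p = 0.112), for Xirp2 -0.50 (SE 0.25, adjusted p = 0.405) and for Nrap -0.31 (SE 0.38, adjusted p = 0.814). The adjusted p alone was passed by 2 of the 10, Ankrd1 and Rcan1, and 1.68% of all genes, and an unadjusted p under 0.05 was reached by 3 of the 10 and 13.7% of all genes. Leaving out any of the 8 sham hearts raised the adjusted p of Rcan1 to between 0.0601 and 0.0934, with log2 fold changes of -1.18 to -1.06. Without Trbp-cKO TAC replicate 4, Xirp1 was called as well (adjusted p = 0.0186), in a fit that called 1.33% of all genes. Xirp1 was also called lower in a fit of only the 2 sham groups (adjusted p = 0.00434), by edgeR's exact test (3.08e-08) and by DESeq2 (0.0210). These called 2.15%, 3.15% and 1.9% of all genes. Xirp1 passed the adjusted p in 4 of 28 alternative settings. Smooth muscle markers (5 genes) summed to 393 to 536 CPM in control sham and 634 to 836 CPM in Trbp-cKO sham hearts, with Acta2 called higher (log2 1.18, adjusted p = 0.0417). The other 4 markers had log2 fold changes of -0.02 to 0.26 and were not called. Of the 7 fibroblast markers, 6 had log2 fold changes above 0 (median 0.47), 6 had an unadjusted p under 0.05 and 0 were called. The part of these markers in the differences was not tested. The 7 immediate early genes had log2 fold changes below 0, with a median of -1.05. None of the 7 was called by edgeR, and 4 had an unadjusted p under 0.05. Without control sham replicate 2, in which their sum was highest, the log2 fold change of Rcan1 was -1.15 (adjusted p = 0.0601) and that of Xirp1 -0.97 (adjusted p = 0.219).

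**Figure D3:**
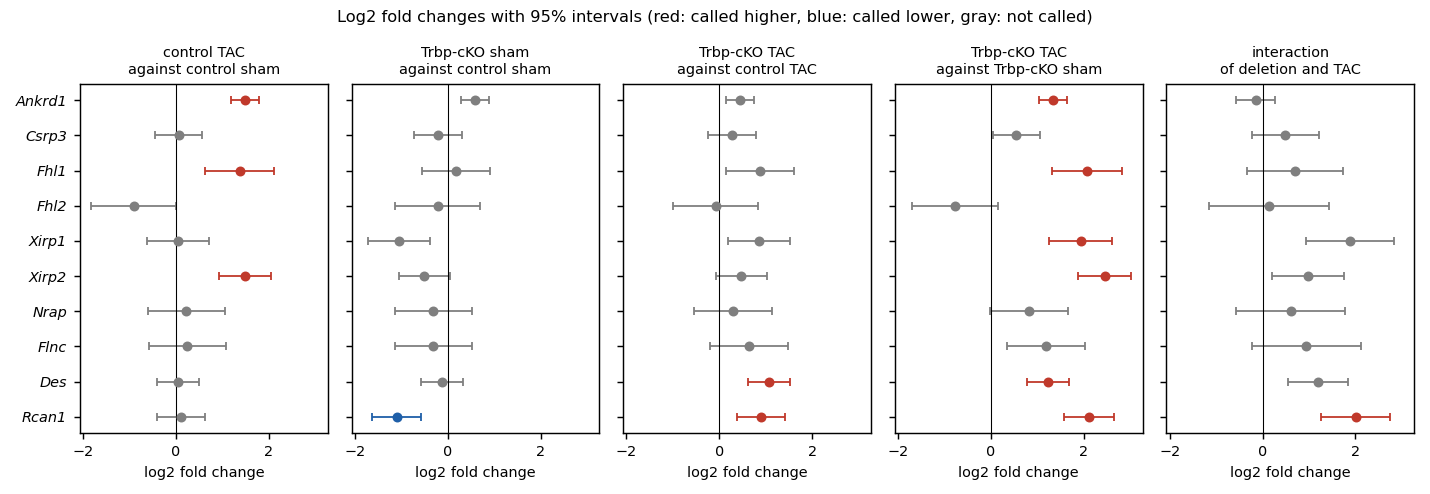
Log2 fold changes of the 10 genes (points) with 95% intervals (bars) in the 4 comparisons and in the interaction, the difference between the 2 genotypes in response to TAC. Genes called higher are red, called lower blue and not called gray. Rcan1 is called lower at -1.10 in Trbp-cKO sham hearts and higher at 2.12 with TAC in Trbp-cKO hearts, and Ankrd1 lies near 0 in the interaction.

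After TAC, Des and Rcan1 were the genes called in Trbp-cKO relative to control hearts, both higher, while 2.46% of all genes were called and 1.55% were called higher. Des was higher by 1.07 on the log2 scale (SE 0.21, adjusted p = 0.00868), and the exact permutation test gave p = 0.0286. Rcan1 was 1.87-fold higher (log2 0.90, SE 0.24, adjusted p = 0.0395). Trbp-cKO TAC replicate 4 overlapped the control TAC hearts, and the exact permutation test gave p = 0.114. The median over the 10 genes was 0.56, against -0.01 over all genes. All Trbp-cKO TAC hearts lay above all control TAC hearts for Ankrd1 and Des, as for 6.12% of all genes. Xirp1 had a log2 fold change of 0.85 (SE 0.31, adjusted p = 0.120), Fhl1 of 0.87 (SE 0.34, adjusted p = 0.143), Flnc of 0.64 (SE 0.38, adjusted p = 0.351) and Fhl2 of -0.08 (SE 0.42, adjusted p = 0.935). The adjusted p alone was passed by 2 of the 10 and 5.53% of all genes, and an unadjusted p under 0.05 was reached by 5 of the 10 and 21.4% of all genes.

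The adjusted p of both moved with the hearts in the fit. In a fit of the 2 TAC groups alone, which called 0.401% of all genes, the log2 fold changes stayed at 1.06 for Des (adjusted p = 0.165) and 0.90 for Rcan1 (adjusted p = 0.253). Without Trbp-cKO TAC replicate 4, 4 genes were called: Des, Rcan1, Xirp1 (log2 1.11, adjusted p = 0.0109) and Fhl1 (log2 1.12, adjusted p = 0.0342), and 2.95% of all genes were called in that fit. Without control TAC replicates 1 and 2, 0 of the 10 and 2.71% of all genes were called: Des stood at 0.67 (adjusted p = 0.0159), under the fold threshold, and Rcan1 at 1.02 (adjusted p = 0.0837), and the log2 fold changes of Csrp3 and Nrap were -0.15 and -0.30, against 0.28 and 0.29 with all hearts. Over the 16 fits without 1 heart, Des kept its call in all 16, whereas Rcan1 lost its call in 13. The adjusted p of Rcan1 ran from 0.00151 to 0.124, the highest without Trbp-cKO TAC replicate 3 (log2 0.63). Smooth muscle also expresses desmin, and its 5 markers summed to 270.3 to 318 CPM in control TAC and 519 to 958 CPM in Trbp-cKO TAC hearts, and 2 of the 5, Acta2 and Cnn1, were called higher. Acta2 had medians of 86.9 and 402 CPM (log2 2.35), and Myh11 and Smtn had log2 fold changes of -0.15 and -0.13. Atrial markers summed to 15.3 to 32.3 and 38.2 to 101 CPM, and 2 of the 3 tested, Myl4 and Dkk3, were called higher. Dkk3 made up most of both sums, at 14.0 to 30.4 and 33.9 to 93.4 CPM, while Myl7 and Sln reached at most 0.48 and 0.17 CPM in Trbp-cKO TAC hearts. The 7 skeletal muscle markers summed to at most 4.21 CPM in any heart, with Myh4 at 0 in every control heart, and 1 of the 3 tested, Tnnt3, was called higher. The 4 endothelial markers had log2 fold changes below 0, with a median of -0.47. None of the 4 was called by edgeR, and 2 had an unadjusted p under 0.05. Their sum was 1116 and 1144 CPM in control TAC replicates 1 and 2, 616 and 589 CPM in replicates 3 and 4, and 857 CPM in Trbp-cKO TAC replicate 4, the highest of its group. The part of these cells in the results was not tested.

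In Trbp-cKO hearts, TAC raised 6 of the 10 genes, Ankrd1, Fhl1, Xirp1, Xirp2, Des and Rcan1, where 5.57% of all genes were called and 3.23% were called higher. The adjusted p alone was passed by 6 of the 10 and 9.94% of all genes, and an unadjusted p under 0.05 by 9 of the 10 and 23% of all genes. The median log2 fold change was 1.28, against -0.0016 over all genes. All TAC hearts exceeded all sham hearts for 7 of the 10, the 6 genes and Csrp3, as for 9.05% of all genes. The 6 log2 fold changes ran from 1.23 for Des to 2.45 for Xirp2, and with the clock score in the fit, which called 1.27% of all genes, Xirp1 at 1.93 (adjusted p = 0.0553) and Des at 1.22 (adjusted p = 0.101) kept their log2 fold changes but not the adjusted p. In the same comparison, atrial markers summed to 12.8 to 18.4 CPM after sham surgery and 38.2 to 101 CPM after TAC, and 2 of the 3 tested were called higher, with a median log2 fold change of 2.18. Of the 7 fibroblast markers 2, Postn and Col1a1, were called higher, with a median of -0.06 over the 7, and of the 5 smooth muscle markers 2, Cnn1 and Tagln, with a median of -0.02 over the 5. The 7 immediate early genes had log2 fold changes above 0, with a median of 0.57, and 1 was called, Atf3 (log2 1.40, adjusted p = 0.0108). The part of these genes in the results was not tested. Each group of hearts enters more than 1 comparison, so the values are set side by side and are not separate support for each other.

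Genes related to the 10 were examined as 5 lists, beside shares of all genes called higher of 2.5% with TAC in control hearts, 1.55% between the genotypes after TAC and 3.23% with TAC in Trbp-cKO hearts. Between the genotypes after sham surgery 0.967% of all genes were called in either direction. Of 24 tested genes of Z-disc structure, 1 was called higher with TAC in control hearts: Synpo2l, which encodes an actin-binding protein of heart and skeletal muscle (log2 1.53, SE 0.21, adjusted p = 0.00109). It was also called with TAC in Trbp-cKO hearts (log2 1.98, SE 0.21, adjusted p = 3.40e-05), together with Pdlim7, a LIM protein bound to actin (log2 0.88, adjusted p = 0.00419), while Tcap, which caps titin at the Z-disc, was called lower (log2 -0.85, adjusted p = 0.0225). After sham surgery, Tcap was called higher in Trbp-cKO than in control hearts (log2 1.06, SE 0.22, adjusted p = 0.0265). Between the genotypes after TAC, 2 were called higher in Trbp-cKO hearts: Pdlim3, an actinin-binding LIM protein (log2 0.96, adjusted p = 0.0138), and Synpo2, an actin-bundling protein (log2 0.90, adjusted p = 0.0489). The median of the 24 genes was -0.20 with TAC in control hearts and 0.21 in Trbp-cKO hearts.

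Among 9 tested relatives of Ankrd1, Csrp3, Fhl1 and Flnc, 3 were called higher in Trbp-cKO than in control hearts after TAC. They were Lmcd1, a LIM protein that acts on calcineurin signalling (log2 1.06, SE 0.15, adjusted p = 0.000757), Csrp2, a LIM protein known from smooth muscle (log2 0.92, SE 0.17, adjusted p = 0.00578), and Ankrd23, an ankyrin repeat protein of muscle (log2 0.92, SE 0.24, adjusted p = 0.0357). Lmcd1 was also called in the interaction (log2 1.37, SE 0.21, adjusted p = 0.00663), and Csrp2 also between the genotypes after sham surgery (log2 0.93, adjusted p = 0.0136). With TAC, 0 of the 9 were called in control hearts by edgeR and by DESeq2, and 2 had an unadjusted p under 0.05, as had 26.6% of all genes. In Trbp-cKO hearts TAC raised Ankrd23 (log2 1.56, adjusted p = 0.000677) and Lmcd1 (log2 1.33, adjusted p = 4.57e-05).

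Of 6 partners of the desmin filament, Synm, which encodes synemin and copolymerizes with desmin, rose with TAC in Trbp-cKO hearts (log2 1.48, SE 0.14, adjusted p = 1.38e-05) and after TAC was higher in Trbp-cKO than in control hearts (log2 1.31, SE 0.14, adjusted p = 9.91e-05). With TAC in control hearts Synm passed the adjusted p but not the fold threshold (log2 0.72, SE 0.14, adjusted p = 0.00948). Vim, the vimentin of non-muscle cells, rose with TAC in control hearts (log2 0.99, SE 0.23, adjusted p = 0.0229). Of 14 genes of costameres and integrin linkage, 1 was called, Zyx, which encodes the LIM protein zyxin (log2 0.84, SE 0.14, adjusted p = 0.00121, with TAC in Trbp-cKO hearts). The adjusted p alone was passed by 4 of the 14 in that comparison (9.94% of all genes) and by 2 of the 14 between the genotypes after TAC (5.53% of all genes), all higher. The median of the 14 was 0.40 between the genotypes after TAC, 13 of them above 0, and -0.04 with TAC in control hearts. Of 11 genes of calcineurin and NFAT other than Rcan1, 0 were called in each of the 4 comparisons between groups by edgeR and by DESeq2. The adjusted p alone was passed by 2 of the 11 with TAC in control hearts, both higher (6.29% of all genes), by 1 between the genotypes after sham surgery, higher (1.68%), by 1 between the genotypes after TAC, lower (5.53%), and by 0 with TAC in Trbp-cKO hearts (9.94%). These were Nfatc2 with TAC in control hearts (log2 0.56, adjusted p = 0.0372) and after TAC (log2 -0.59, adjusted p = 0.0318), and Rcan3, named after its values were seen, with TAC in control hearts (log2 0.41, adjusted p = 0.0238) and after sham surgery (log2 0.42, adjusted p = 0.0404). In the same order, an unadjusted p under 0.05 was reached by 4, 3, 1 and 1 of the 11 and by 26.6%, 13.7%, 21.4% and 23% of all genes. In the interaction, where 0.872% of all genes were called, 1 of the 11 was called, Nfatc2, a calcineurin-dependent transcription factor (log2 -0.92, SE 0.21, adjusted p = 0.0478).

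**Figure D4:**
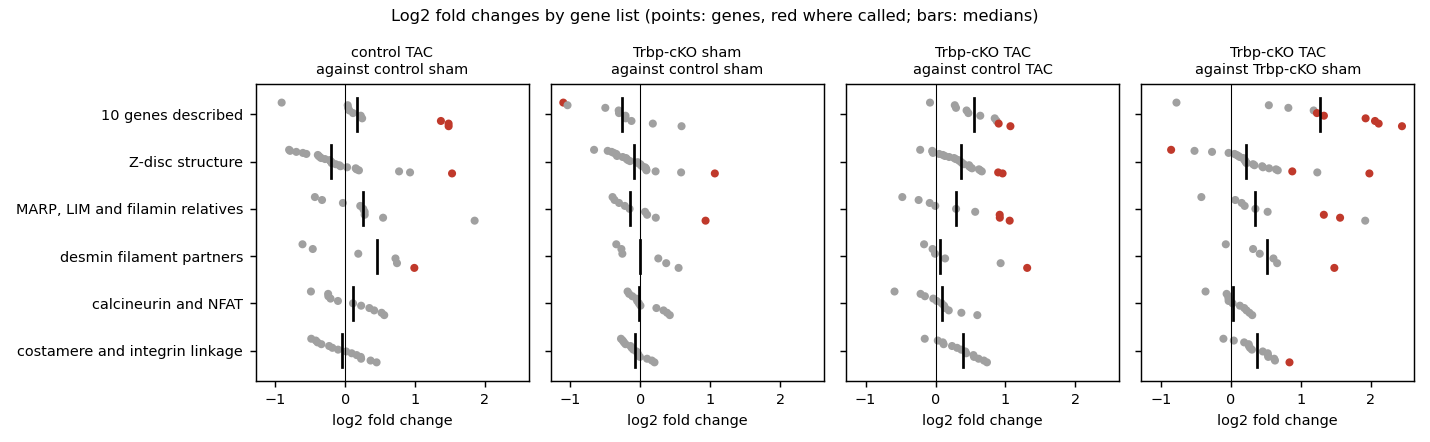
Log2 fold changes of the 10 genes and of 5 related gene lists in the 4 comparisons. Points are genes, red where called, and black bars are medians; the bar of the 10 genes lies at 0.17, -0.26, 0.56 and 1.28 from left to right.

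The gene with the closest profile was found for each of the 10 over the 16 hearts, among 9343 genes with a symbol and a mean log2 CPM of at least 3, by Pearson's r of log2 CPM, and these values are descriptions without a test. Xirp1 and Rcan1 had the same nearest gene, Slc38a2, an amino acid transporter (r = 0.97 and 0.96), and were themselves close (r = 0.94). Xirp2 was nearest to Synpo2l (r = 0.97), Nrap to Kremen1 (r = 0.96), Flnc to P2rx5 (r = 0.96), Des to Nars, an aminoacyl-tRNA synthetase (r = 0.97), Fhl1 to Fam20c (r = 0.97) and Csrp3 to Myl12a (r = 0.94). Fhl2 was nearest to Idh2, the mitochondrial isocitrate dehydrogenase (r = 0.97), and kept r = 0.95 after subtraction of group means. Ankrd1 was nearest to the collagen gene Col8a1 (r = 0.96), but after subtraction of group means r was -0.31, so that profile rests on the differences between groups.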

How the data were processed

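Total RNA was isolated from the ventricles of each heart, selected with oligo(dT) for polyadenylated RNA and sequenced as paired reads of 150 bases. The submitters' processing notes name cutadapt 2.3, HISAT2 2.1.0, StringTie 1.3.4 and the genome build GRCm38. The deposited values are counts made by the authors, whole numbers per gene, which StringTie's script derives from coverage and a read length of 75 bases by default. The value used and the annotation release were not given in the sources used here. Symbols and positions came from GENCODE M21, which placed 55394 of the 55573 genes.

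Counts were fitted with edgeR 4.0.16 in R 4.3.3 (TMM, default low-count filter, 1 robust quasi-likelihood fit of all 16 hearts, no covariate). CPM use TMM-adjusted library sizes. The genes and lists were chosen with earlier results of these data known. The text names the 10 genes, Tarbp2, the called list genes with the largest changes (up to 3 per list and comparison) and the nearest gene of each of the 10. It also names marker genes, list genes that passed the adjusted p alone, and genes that share exon sequence with Nrap or Des. The fit was tested on simulated counts, and no result above draws on that test. Alternatives covered scaling, mitochondrial genes, thresholds, samples in the fit, DESeq2 1.42.0, edgeR's exact test, filters, symbols, halved counts, a replicate block, a clock score and each heart left out. Standard errors of log2 fold changes were 0.14 to 0.42 for the 10 genes in control TAC against control sham hearts. Promoter motifs were matched by letters in RefSeq GRCm38.p6 windows.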

Additional observations from a re-analysis of the deposited data

Results flagged for a closer look

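Des in Trbp-cKO TAC hearts drew attention because replicate 1, at 3403 CPM, was farther from its group than the spread of the other 3 hearts (3786 to 3838 CPM) would place it. This was the only one of 40 groups of 4 hearts, 10 genes in each of 4 groups, with a sample so far from the rest, and chance gives such a gap in about 1 in 20 groups. Rcan1 drew attention because its response to TAC differed between the genotypes, by 2.01 on the log2 scale in the interaction test, with 0.11 in control and 2.12 in Trbp-cKO hearts.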

How the results depend on the processing

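The fit without control TAC replicates 1 and 2 was chosen after seeing the data. Of 680 log2 fold changes recomputed under another setting, 630 kept their direction and their side of the adjusted p threshold, 20 lost significance, 18 gained it and 12 reversed. In the counts that follow, the share of all genes called stands in brackets. With TAC in Trbp-cKO hearts, the number of the 10 genes called was 6 (5.57%), and 6 to 7 without 1 heart (4.21% to 6.13%). It was 7 in edgeR's exact test (7.16%), in DESeq2 (6.8%) and without control TAC replicates 1 and 2 (6.89%). The clock score gave 4 (1.27%), and every other setting gave 6 (2.6% to 9.94%). With TAC in control hearts the count was 3 (3.75%), 2 to 3 without 1 heart (1.4% to 8.02%), 2 with the replicate block (1.92%), and 1 with the clock score (0.205%). Between genotypes after sham surgery it was 1 (0.967%), 0 to 2 without 1 heart (0.371% to 1.33%), 2 with no fold threshold (1.68%), in a fit of only the 2 groups (2.15%), in edgeR's exact test (3.15%) and in DESeq2 (1.9%), and 0 with the replicate block (0.536%) or the clock score (0 of all genes). Between genotypes after TAC it was 2 (2.46%), 1 to 4 without 1 heart (1.45% to 3.75%), 1 with a fold threshold of 1 (1.64%), with edgeR's exact test (2.09%), with no low-count filter (1.04%), with the replicate block (1.37%) and with the clock score (1.94%), and 0 in a fit of only the 2 groups (0.401%) and without control TAC replicates 1 and 2 (2.71%). For the interaction it was 1 (0.872%), 1 to 3 without 1 heart (0.286% to 2.03%), 3 in DESeq2 (2.77%) and with a filter of 1 CPM in 4 hearts (1.36%), 2 with halved counts (1.12%), and 0 with the replicate block (0.271%) or the clock score (0.00501%). The replicate block is no pairing by design: same-numbered hearts of Trbp-cKO and control TAC correlated at -0.43 to 0.08, and in no comparison did every heart correlate best with its own number.

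Library size scaling moved the median of all genes between genotypes after TAC from -0.01 to 0.13. Reversals were of log2 fold changes that did not pass the test. For Fhl2 between genotypes after TAC they were 0.032 with library size scaling, 0.027 with the replicate block and 0.016 with the clock score. With the clock score, TAC in control hearts gave -0.25 for Csrp3, -0.39 for Nrap and -0.25 for Flnc, Fhl1 stood at -1.50 in Trbp-cKO sham hearts and the Ankrd1 interaction at 0.10. Without control TAC replicates 1 and 2, Csrp3 and Nrap stood at -0.15 and -0.30 between genotypes after TAC, Rcan1 at -0.016 with TAC in control hearts and the Fhl2 interaction at -0.56. Without 1 heart, TAC in control hearts gave -0.12 to 0.23 for Csrp3, -0.12 to 0.20 for Xirp1, -0.073 to 0.45 for Nrap, -0.040 to 0.47 for Flnc and -0.20 to 0.18 for Des, and Fhl2 ranged from -0.37 to 0.25 between genotypes after TAC and from -0.15 to 0.46 in the interaction. The cause of these changes was not tested. With halved counts the adjusted p of the Xirp1 interaction was 0.0457, against 0.0504, and counting error was not separated from the spread between hearts.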
